A study of Mus musculus with 43 samples.

Results

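Tumoroids treated with 5-fluorouracil (5-FU) were compared with the same tumoroid lines kept in vehicle, in 6 of the 43 RNA sequencing libraries of the series. The 6 libraries are those that the genotype labels and library names place as Apc deficient with DMSO or with 5-FU, 1 library per treatment from each of the lines F11, M3 and M14. The titles of the 3 libraries with 5-FU say colonoid, whereas their genotype labels and library names say Apc deficient. The name of the F11 library with 5-FU states 5-FU but carries the same T number as the DMSO libraries. The names of the M3 and M14 libraries with 5-FU carry a different T number. RNA of the X-inactivation gene Xist was counted in both libraries of F11, from a female mouse (22231 CP20M with vehicle and 11984 CP20M with 5-FU), and was at 0 in the libraries of M3 and M14, from males. Of the 52636 genes in the organoid table, the 10802 with at least 200 CP20M in 2 or more of the 6 libraries were tested.

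Tumoroids are organoids grown from colon epithelium that has lost Apc, the negative regulator of Wnt signalling. They came from Vil-cre/ERT2 mice homozygous for a floxed Apc allele and given tamoxifen, with the Cre driven by the Villin promoter and so restricted to the intestinal epithelium. Each line came from a single mouse aged 2 months. The colonoids used for comparison, lines M1, M40 and M41, came from tamoxifen-treated Vil-cre/ERT2 mice with wild-type Apc. Organoids grew in Matrigel, in a medium with EGF, R-spondin, Noggin and Wnt3a, and from replating received 1 µM 5-FU or vehicle (0.5% DMSO) for 6 days. Whether the cultures with 5-FU also held DMSO is not given in the sources used here, so the drug and any difference in solvent cannot be told apart.

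5-FU is a uracil analogue that cells convert to nucleotides. One product blocks thymidylate synthase, which makes the thymidine nucleotide for DNA, and others are built into RNA and DNA. The resulting damage can activate p53. ATF4 is the transcription factor of the integrated stress response, which cells switch on when amino acids run short or protein folding fails, and it raises genes of amino acid synthesis and transport.

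Values are CP20M, the reads counted on a gene scaled to a total of 20000000 reads per library and not divided by transcript length, so levels are compared between libraries and not between genes. The paper's figure legends describe CP20M as also taken per kilobase of transcript. Nearly all values of a library lie on a common step, so they are read here as not divided by length. A value of 20 CP20M is 1 CPM. The spacing of the values gives an estimated 13500000 to 20200000 counted reads per library. All 11 markers of colon epithelium were above 0 in every library, with a summed level of 144897 to 175667 CP20M with vehicle and 172805 to 194476 CP20M with 5-FU, and none was called (2 at an unadjusted p under 0.05). The 9 fibroblast markers summed to 12 to 34 and 23 to 56 CP20M, with 4 of the 9 at 0 in all 3 libraries of either group. The 7 endothelial and smooth muscle markers summed to 9 to 29 and 13 to 41 CP20M, and the 9 immune markers to 524 to 597 and 563 to 767 CP20M. Reads of the whole Apc gene, which do not resolve the deleted part, were 4932, 4972 and 5211 CP20M with vehicle and 4766, 3813 and 5092 CP20M with 5-FU in F11, M3 and M14 (log2 fold change −0.15, adjusted p = 0.375). Line F11 stood apart in proliferation, with 11896 CP20M of Mki67 under vehicle against 242 CP20M in M3 and 567 CP20M in M14.

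With 5-FU, 14 of 19 tested genes of the integrated stress response fell and 9 of 12 tested genes of a list of epithelial-mesenchymal transition (EMT) and matrix rose. Of the fetal-like and regenerative genes 3 of 12 rose, of the p53 targets 7 of 50, and no gene of the cell cycle lists was called. The lists were chosen with earlier results of these data known, so their counts and shares are descriptions and not independent support. In limma, with the line as a block and the spread estimated over all 12 tumoroid libraries, 582 genes (5.39% of those tested) were called, meaning a change of at least 1.5-fold in either direction with an adjusted p under 0.05. Of these, 356 were higher with 5-FU (3.3%) and 226 were lower (2.09%), and all 582 moved the same way in the 3 lines. A log2 fold change of 1 or more in size was reached by 146 of the higher and 56 of the lower genes. The median log2 fold change over all genes tested was −0.02. Of the higher genes 93 reached 200 CP20M in 2 or more libraries only with 5-FU, and of the lower genes 36 only with vehicle, so these genes entered the test through the group in which they were high, and 263 higher and 190 lower genes did not. A gene named below without this remark can still be one of them. In such bulk libraries fewer cells of a type and less RNA per cell cannot be told apart.

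The number of calls rests on lines M3 and M14. Without F11 1276 genes were called, without M3 a single gene, and without M14 none in limma, with 1414 genes at an unadjusted p under 0.05 and no other tool run. The 582 genes kept their direction in each of these fits, which was fixed in advance since all moved the same way in the 3 lines. Without M14, 561 of them had an unadjusted p under 0.05 in limma. The 582 genes had a median absolute log2 difference of 0.68 in F11, 1.06 in M3 and 0.87 in M14. Over all genes tested it was 0.19, 0.30 and 0.25. The 582 genes were chosen on these same values, so neither result is independent support for the calls. Without the line as a block 85 genes were called. Without any model, the 3 libraries with 5-FU lay all above the 3 with vehicle for 904 genes (8.37%) and all below for 1249 (11.6%), and 444 of the called genes were among them.

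**Figure D1:**
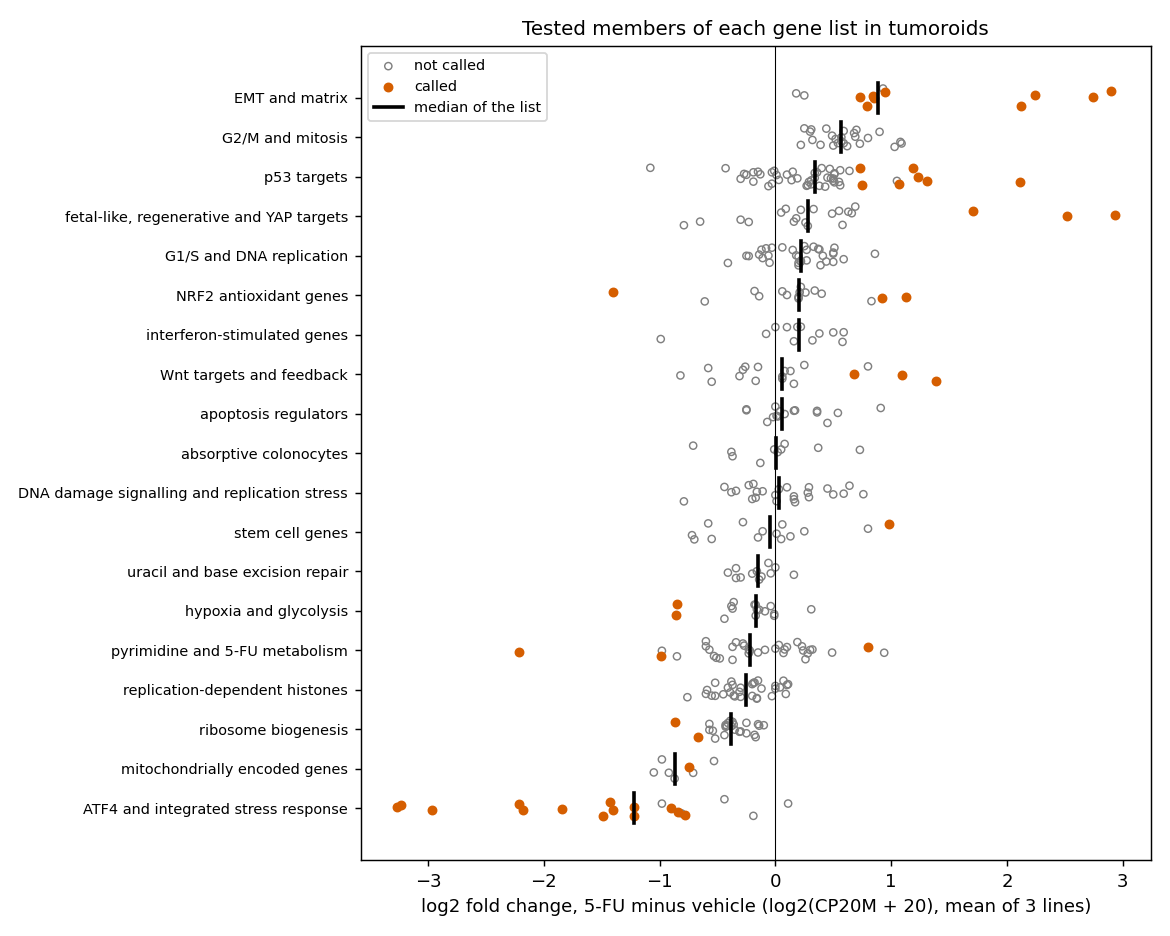
Log2 fold change (x axis, 5-FU minus vehicle, mean of 3 lines) of every tested member of the gene lists on the y axis. Filled orange points are called genes, open grey points genes not called and black bars list medians; the integrated stress response lies left of 0 with a median of −1.22, and the matrix list right of 0 with a median of 0.89.

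The 3 largest falls were of genes of the integrated stress response. Of the 20 genes of this list 19 passed the filter (Fgf21, a secreted stress hormone, did not), and 14 were called lower and none higher. Their median log2 fold change was −1.22, and 18 of the 19 were lower in every line, against 3052 of all 10802 genes tested. In 15 of the 19 the 3 libraries with 5-FU lay all below those with vehicle, against 11.6% of all genes tested. Of the 14 called members 3 passed the filter only through the vehicle libraries, Aldh1l2, Chac1 and Ddit3, and the other 16 tested members had 11 calls and a median of −1.10.

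ATF4 acts through a composite site, the C/EBP-ATF response element, whose letters TGATGNAA were searched on both strands in the 250 bases before RefSeq gene starts. They were found at 1056 of 27025 genes (3.91%), at 180 of the 8010 tested genes with a sequence in the table used (2.25%) and at 6 of the 17 tested stress response genes with one (35.3%). Of the 14 genes called lower 12 had a sequence, and 3 of these, Asns, Chac1 and Slc7a11, held the letters. The other tested members that held them, Atf3, Vldlr and Nupr1, were not called, and Nupr1 did not fall. Whether the letters go with the fall was not tested. The windows of Chac1 (chr2:119350992-119351241, plus strand) and Slc7a11 (chr3:50443614-50443863, minus strand) are shown as examples of genes that fell and carry the element. They are RefSeq sequences on GRCm38.p6, printed 5′ to 3′ on the strand of the gene, with the matched letters of either strand in capitals. The match begins 193 bases before the start of Chac1, and Slc7a11 holds 2 matches that begin 66 and 47 bases before its start.
Chac1: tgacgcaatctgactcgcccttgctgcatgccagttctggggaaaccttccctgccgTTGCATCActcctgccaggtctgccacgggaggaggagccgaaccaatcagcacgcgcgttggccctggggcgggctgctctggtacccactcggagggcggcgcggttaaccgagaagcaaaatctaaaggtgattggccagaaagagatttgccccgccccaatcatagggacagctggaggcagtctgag
Slc7a11: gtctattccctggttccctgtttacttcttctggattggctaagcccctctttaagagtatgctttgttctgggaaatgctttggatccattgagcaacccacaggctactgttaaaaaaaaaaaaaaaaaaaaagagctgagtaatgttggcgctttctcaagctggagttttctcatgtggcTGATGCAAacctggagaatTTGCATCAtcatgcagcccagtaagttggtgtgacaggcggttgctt
A match describes these letters only, and binding was not measured here.

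Trib3, a pseudokinase induced by ATF4 (chromosome 2, 152337422 to 152344032, minus strand), had the largest fall of all genes called. Its level was 1111, 4156 and 2706 CP20M with vehicle in F11, M3 and M14, and 112, 211 and 454 CP20M with 5-FU. The groups did not overlap, and the log2 fold change was −3.27 (95% interval −4.32 to −2.21, adjusted p = 0.00789), a 9.62-fold fall.

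Aldh1l2, a mitochondrial enzyme of folate metabolism (chromosome 10, 83487450 to 83534140, minus strand), went from 807, 2391 and 2212 CP20M to 30, 181 and 520 CP20M. Chac1, which degrades glutathione (chromosome 2, 119351229 to 119354381, plus strand), went from 851, 1748 and 1989 CP20M to 99, 123 and 360 CP20M. Their log2 fold changes were −3.23 (adjusted p = 0.00699) and −2.97 (adjusted p = 0.0125), and for both every library with 5-FU was below every library with vehicle.

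Atf4 RNA itself fell. Its level was 6503, 10496 and 10285 CP20M with vehicle and 2493, 3159 and 3996 CP20M with 5-FU, a log2 fold change of −1.49 (95% interval −2.01 to −0.96, adjusted p = 0.00971). Ddit3 (CHOP), a transcription factor that promotes death under lasting stress, fell by 1.43 on the log2 scale (adjusted p = 0.0302). Atf3 was not called, at −0.81 (95% interval −1.91 to 0.29), with a difference of −2.03 in M3, −0.12 in F11 and −0.28 in M14. The members Atf4, Ddit3, Atf3, Asns, Phgdh, Shmt2, Vldlr, Sesn2 and Nupr1 are named after their values were seen.

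Several called members serve amino acid transport or synthesis. Slc7a5, the large neutral amino acid transporter, went from 5643, 6783 and 6566 CP20M to 2069, 926 and 1363 CP20M (log2 fold change −2.18, adjusted p = 0.00788). Psat1, of serine synthesis, went from 7016, 8611 and 6940 CP20M to 3018, 1497 and 1998 CP20M (−1.84, adjusted p = 0.00651). Asparagine synthetase (Asns) went from 5398, 8196 and 6795 CP20M to 2628, 2690 and 3298 CP20M (−1.22, adjusted p = 0.00925). The groups of all 3 genes did not overlap, and M3 had the largest fall in each. Phgdh, the first enzyme of serine synthesis, fell by 0.78 (adjusted p = 0.0186) and the cystine transporter Slc7a11 by 1.40 (adjusted p = 0.0276).

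Mthfd2, a mitochondrial folate enzyme, went from 2066, 4291 and 3092 CP20M to 699, 442 and 833 CP20M (log2 fold change −2.21, adjusted p = 0.00971). Shmt2, the mitochondrial serine hydroxymethyltransferase, was at −0.98 with an adjusted p of 0.0506 and was not called. The other members not called were Vldlr (−0.44), Sesn2 (−0.19), Atf3 and Nupr1 (0.11). Outside the list, the related factor Atf5 (−2.15, adjusted p = 0.0137) and Cth, which makes cysteine (−2.12, adjusted p = 0.0153), were among the 12 largest falls. So were the peptide hormone gene Adm2 (−2.89, adjusted p = 0.00862), the mitochondrial thioesterase gene Acot2 (−2.12, adjusted p = 0.0125) and Fam129a (−1.75, adjusted p = 0.0169). Adm2 and Acot2 passed the filter only through the vehicle libraries.

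**Figure D2:**
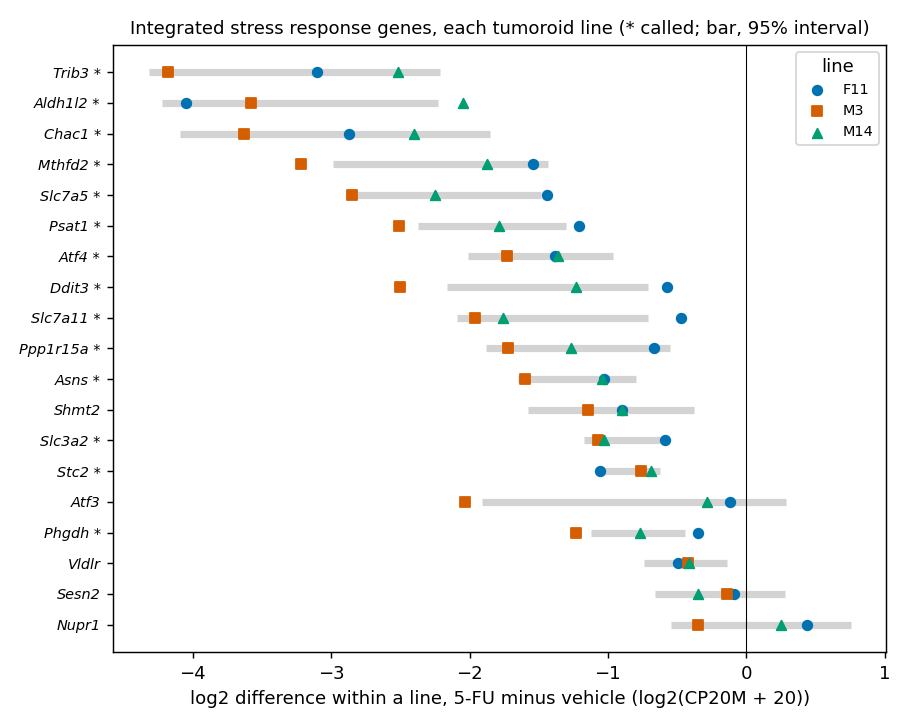
Log2 difference between 5-FU and vehicle within each line (x axis) for the 19 tested genes of the integrated stress response (y axis). Blue circles are F11, orange squares M3 and green triangles M14, grey bars are 95% intervals of the mean and asterisks mark called genes; all genes but Nupr1 lie left of 0 in all 3 lines.

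Of the 21 genes of the EMT and matrix list 12 passed the filter, and 9 were called higher and none lower. The list also holds the epithelial adhesion genes Cdh1 and Epcam, which EMT is known to lower, and both were among the 12 tested. The median log2 fold change was 0.89, and all 12 were higher in every line, Cdh1 and Epcam included. Of all 10802 genes tested 2684 were higher in every line. In 8 of the 12 the libraries with 5-FU lay all above those with vehicle, against 8.37% of all genes tested. Lamb1, Igfbp7 and Itga5 passed the filter only through the libraries with 5-FU, and the other 9 tested members had 6 calls and a median of 0.84.

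Fibronectin (Fn1, chromosome 1, 71585520 to 71653200, minus strand), a matrix glycoprotein that integrins bind, was at 935, 1430 and 2802 CP20M with vehicle and at 5584, 11904 and 24198 CP20M with 5-FU. Every library with 5-FU was above every library with vehicle. The log2 fold change was 2.90 (95% interval 2.48 to 3.31, adjusted p = 0.000432), a 7.45-fold rise. Apol7d, also among the 12 largest rises (a 5.66-fold rise, adjusted p = 0.00147), overlaps Fn1 on the opposite strand, and since the strand setting of the counting is not given the reads of the pair cannot be told apart.

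Thrombospondin 1 (Thbs1, chromosome 2, 118111876 to 118127133, plus strand), a secreted matricellular protein, went from 407, 632 and 574 CP20M to 1699, 7615 and 3754 CP20M (log2 fold change 2.74, adjusted p = 0.00651). Laminin β1 (Lamb1), of the basement membrane, went from 10, 34 and 40 CP20M to 52, 390 and 325 CP20M (2.24, adjusted p = 0.0244). Igfbp7, a secreted binding protein, went from 111, 105 and 90 CP20M to 259, 1346 and 369 CP20M (2.12, adjusted p = 0.0126). The groups of all 3 genes did not overlap, and M3 rose furthest in each. Other called members were the integrin subunit Itga5, the glypican Gpc1 and the collagen IV chains Col4a1 and Col4a2, with log2 fold changes of 0.79 to 0.95, named after their values were seen.

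The called members named above encode secreted or cell surface proteins. The EMT transcription factors Zeb1, Zeb2, Snai1, Snai2 and Twist1 were below the filter, with at most 17 CP20M in any of the 6 libraries. Vimentin (Vim), the intermediate filament of mesenchymal cells, was at 6, 0 and 3 CP20M with vehicle and 13, 35 and 41 CP20M with 5-FU, also below the filter. Cdh1 (0.18, adjusted p = 0.245) and Epcam (0.25, adjusted p = 0.429) were not called. The 9 fibroblast markers summed to 19, 12 and 34 CP20M with vehicle and 23, 56 and 43 CP20M with 5-FU in F11, M3 and M14, and their part in these rises was not tested. The genes of this paragraph were named after their values were seen.

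**Figure D3:**
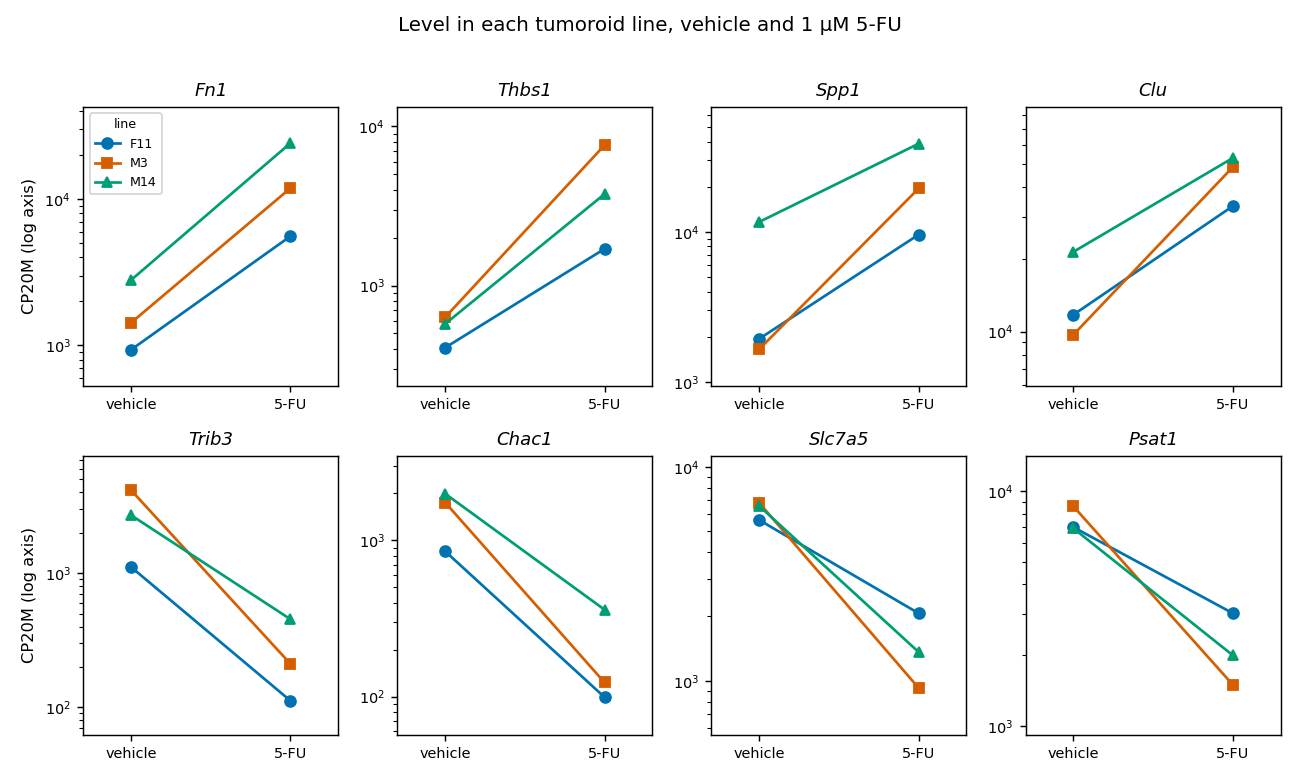
Level of 8 genes in CP20M (y axes, logarithmic) with vehicle and with 5-FU, for the lines F11 (blue circles), M3 (orange squares) and M14 (green triangles). Fn1, Thbs1, Spp1 and Clu in the upper row rise in every line, and Trib3, Chac1, Slc7a5 and Psat1 in the lower row fall in every line.

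Of the 12 tested genes of the fetal-like and regenerative epithelium 3 were called higher, Sprr1a, Spp1 and Clu, and the median log2 fold change was 0.56. Clusterin (Clu), a secreted chaperone that marks regenerating crypts (chromosome 14, 65968483 to 65981547, plus strand), went from 11746, 9691 and 21503 CP20M to 33343, 48513 and 52949 CP20M. The groups did not overlap, and the log2 fold change was 1.71 (95% interval 1.31 to 2.11, adjusted p = 0.00273). Osteopontin (Spp1, chromosome 5, 104435118 to 104441050, plus strand), a secreted integrin ligand, went from 1940, 1655 and 11662 CP20M to 9589, 19475 and 38706 CP20M (2.52, adjusted p = 0.00755). M14 with vehicle lay above F11 with 5-FU, while every line rose. Gm42793 (2.42, adjusted p = 0.00788) lies within Spp1 on the same strand and can share its reads.

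Sprr1a, a small proline-rich protein of the cornified envelope, had the largest rise of all genes called, from 64, 44 and 160 CP20M to 332, 702 and 1659 CP20M (log2 fold change 2.93, 95% interval 1.73 to 4.13, adjusted p = 0.0158). It passed the filter only through the libraries with 5-FU, and the other 11 tested fetal-like genes had 2 calls. The fetal-like marker Ly6a (Sca-1), named after its values were seen, was at 13884 to 19110 CP20M with vehicle and was not called (0.22, adjusted p = 0.466). Of the 9 tested YAP targets none was called, with a median of 0.09 and 1 gene at an unadjusted p under 0.05. Among the other large rises were drebrin (Dbn1, an actin-binding protein, 2.43, adjusted p = 0.00346), nestin (Nes, an intermediate filament, 2.37, adjusted p = 0.016) and Nlrp10 (of the NOD-like receptor family, 2.34, adjusted p = 0.00651). Ctla2a, CT010498.1 and AC160962.1, at 2.51 to 2.54, overlap on the same strand of chromosome 13 and can share reads.

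Of the 55 p53 targets 50 were tested, and 7 were called higher and none lower, with a median log2 fold change of 0.34. At an unadjusted p under 0.05 in limma 19 of the 50 were higher and 2 lower, against 2906 of all 10802 genes tested in either direction. Adenylate kinase 1 (Ak1) went from 55, 209 and 269 CP20M to 228, 1851 and 849 CP20M (2.11, adjusted p = 0.0285). Trp53i11 went from 420, 441 and 619 CP20M to 793, 1401 and 1687 CP20M (1.31, adjusted p = 0.00342), and the antiproliferative gene Btg2 from 1338, 1161 and 2529 CP20M to 2701, 3687 and 4763 CP20M (1.19, adjusted p = 0.012). The groups did not overlap for Trp53i11 and Btg2, while for Ak1 F11 with 5-FU lay below M14 with vehicle. Ddit4l, an inhibitor of mTOR signalling, rose by 1.23 (adjusted p = 0.0355), and Gtse1, Ptpn14 and 9030617O03Rik, named after their values were seen, by 0.73 to 1.07.

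The best known p53 targets were not called. Cdkn1a, the p21 inhibitor of cyclin-dependent kinases, went from 4778, 5602 and 5429 CP20M to 6201, 8648 and 6948 CP20M. The groups did not overlap, but the log2 fold change was 0.45 (95% interval 0.01 to 0.89, adjusted p = 0.177). Mdm2, the ligase that degrades p53, was at 0.36 (adjusted p = 0.412), and Trp53 itself at −0.02 (adjusted p = 0.935).

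Of the 35 tested genes of pyrimidine and 5-FU metabolism 1 was called higher and 2 lower, with a median of −0.22. Of all genes tested 3.3% were called higher and 2.09% lower. Thymidylate synthase (Tyms), the enzyme that 5-FU blocks, went from 1351, 625 and 651 CP20M to 1286, 233 and 289 CP20M. M3 and M14 were lower by 1.35 and 1.12 and F11 by 0.07 on the log2 scale, and the mean of −0.85 was not called (95% interval −1.59 to −0.10, adjusted p = 0.137). Umps, which converts 5-FU to its nucleotide, was at −0.60 (adjusted p = 0.123). Cytidine deaminase (Cda) rose by 0.80 (adjusted p = 0.0367), and the folate carrier Slc19a1 fell by 0.99 (adjusted p = 0.044), beside Mthfd2. Upp1, a uridine phosphorylase (53 to 66 CP20M with vehicle), and Dpyd, which degrades 5-FU (3 to 11 CP20M with vehicle), were below the filter. None of the 12 tested genes of uracil removal and base excision repair (median −0.15) or of the 25 of DNA damage signalling (median 0.03) was called in limma, with 2 genes of each list at an unadjusted p under 0.05.

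Cell cycle genes were highest in F11 under both treatments, with no call for 5-FU. None of the 33 genes of G1/S and DNA replication (median 0.22) or the 25 of G2/M and mitosis (median 0.57) was called in limma, with 2 and 0 genes at an unadjusted p under 0.05. The summed level of the G2/M list was 69100, 3040 and 4680 CP20M with vehicle and 59400, 7400 and 7280 CP20M with 5-FU in F11, M3 and M14. The median log2 difference of this list was −0.13 in F11, 1.20 in M3 and 0.67 in M14. Mki67, a marker of cycling cells, was at 11896, 242 and 567 CP20M with vehicle and 8861, 557 and 576 CP20M with 5-FU (0.25, 95% interval −1.92 to 2.41, adjusted p = 0.897). Rrm2, of ribonucleotide reductase, was higher in every line, from 2243, 210 and 221 CP20M to 3641, 548 and 409 CP20M, and was not called (0.94, adjusted p = 0.236). Thymidine kinase (Tk1) was at 0.32 (adjusted p = 0.746). None of the 32 tested replication-dependent histone genes was called or had an unadjusted p under 0.05, with a median of −0.93 in F11, 0.13 in M3 and −0.05 in M14.

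**Figure D4:**
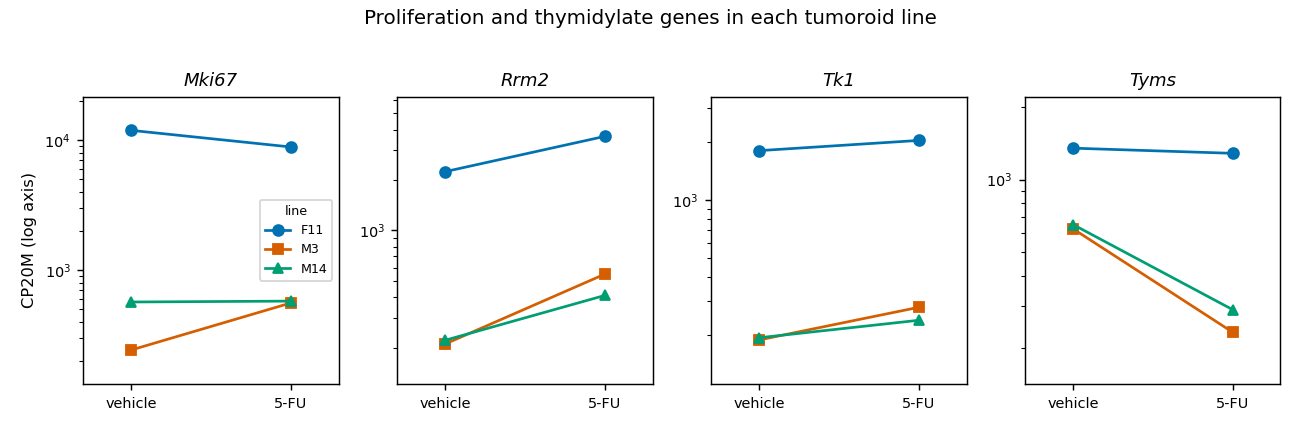
Level of Mki67, Rrm2, Tk1 and Tyms in CP20M (y axes, logarithmic) with vehicle and with 5-FU in F11 (blue circles), M3 (orange squares) and M14 (green triangles). F11 lies above the other lines for all 4 genes under both treatments, and Tyms is lower with 5-FU in M3 (625 to 233 CP20M) and M14 (651 to 289 CP20M).

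Of the 18 tested Wnt targets 3 were called higher, against 3.3% of all genes tested, with a median of 0.06. They were the secreted inhibitor Dkk2 (1.39, adjusted p = 0.0172), the transcription factor Sox4 (1.09, adjusted p = 0.0209) and the adhesion receptor Cd44 (0.68, adjusted p = 0.0126). Axin2, a feedback gene of the pathway, was not called (−0.15, adjusted p = 0.426). Of 14 stem cell genes the RNA-binding protein gene Mex3a rose (0.98, adjusted p = 0.0354), and the stem cell receptor Lgr5 was not called (−0.55, 95% interval −2.15 to 1.05, adjusted p = 0.665). None of 10 tested genes of absorptive colonocytes was called (median 0.01, with 2 at an unadjusted p under 0.05), and another 10 were below the filter. Most markers of secretory cells were below the filter, among them all 13 of enteroendocrine cells and 12 of 13 of goblet cells. The matrix protease Mmp7 was the single tested member of its list of 10 deep crypt genes and rose (1.64, adjusted p = 0.0378). Of the 3 tested tuft cell genes the channel Trpm5 rose (0.94, adjusted p = 0.028), while Avil, named after its values were seen, went from 30, 1554 and 914 CP20M to 26, 334 and 430 CP20M and was not called (−1.11, 95% interval −2.08 to −0.14, adjusted p = 0.135). Mmp7, Trpm5 and Dkk2, as well as Ddit4l and Cda above, passed the filter only through the libraries with 5-FU.

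Of the 25 genes of ribosome biogenesis 2 were called lower and 23 were not called, with a median of −0.38. In limma 17 of the 25 had an unadjusted p under 0.05, all of them lower, against 2906 of all 10802 genes tested in either direction. In every line 19 of the 25 were lower, against 3052 of all genes tested. Rrp12 (−0.87, adjusted p = 0.0142) and nucleolin (Ncl, −0.67, adjusted p = 0.0126) were the called genes. Of the 7 tested mitochondrially encoded genes mt-Cytb alone was called (−0.75, adjusted p = 0.0444). All 7 lay lower with 5-FU without overlap of the groups, against 11.6% of all genes tested. The median was −0.41 in F11, −1.58 in M3 and −0.61 in M14. The share of all mitochondrially encoded reads was 1.197%, 1.012% and 1.071% with vehicle and 0.847%, 0.658% and 0.804% with 5-FU, and its part in these values was not tested. The mitochondrial tRNA gene mt-Tw was among the 12 largest falls (−2.11, adjusted p = 0.0302). Of 16 NRF2 targets malic enzyme Me1 (1.13, adjusted p = 0.0333) and glutathione transferase Gsta4 (0.92, adjusted p = 0.00908) rose and Slc7a11 fell. The angiogenic factor Vegfa (−0.86, adjusted p = 0.00617) and the glycolytic enzyme Pfkp (−0.85, adjusted p = 0.0422) fell, of 16 genes of hypoxia and glycolysis. Over all genes tested 3.3% were called higher and 2.09% lower. Of 11 inflammatory genes Tgfb1 rose (0.62, adjusted p = 0.0188). No gene was called among 12 interferon-stimulated genes, 16 apoptosis regulators and 18 genes of cholesterol synthesis, with medians of 0.21, 0.06 and 0.04 and with 2, 4 and 5 genes at an unadjusted p under 0.05.

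The colonoids address whether the response depends on the loss of Apc, with no library shared between the comparisons. Across the genes tested, the mean log2 fold changes of the 3 tumoroid and the 3 colonoid lines had a correlation of 0.73, given as a description since genes are not independent replicates. Of the 582 called genes 565 (97.1%) had the same sign in colonoids, against 73.5% of all genes tested. The integrated stress response had a median of −1.22 in tumoroids and −0.82 in colonoids, the matrix list 0.89 and 0.90, and the p53 targets 0.34 and 0.51. Other lists had medians of unlike sign. Ribosome biogenesis was at −0.38 in tumoroids and 0.1 in colonoids, pyrimidine and 5-FU metabolism at −0.22 and 0.12, and absorptive colonocytes at 0.01 and −0.4.

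The difference between the genotypes, tested as an interaction in limma, was called for a single gene (0.00926% of the genes tested). An unadjusted p under 0.05 was reached by 815 of the 10802 genes tested, among them 128 of the 582 genes called for 5-FU in tumoroids. Rhoc, a small GTPase of the actin cytoskeleton (chromosome 3, 104788375 to 104794459, plus strand), went from 187, 384 and 841 CP20M to 567, 1173 and 2041 CP20M in F11, M3 and M14. In the colonoid lines M1, M40 and M41 it was at 2017, 3768 and 2698 CP20M with vehicle and 1795, 3310 and 1692 CP20M with 5-FU. The log2 fold changes were 1.44 and −0.34, and they differed by 1.78 (95% interval 1.39 to 2.18, adjusted p = 0.0221). The call was lost on leaving out any line but M40. The next genes, Akr1c19 (1.44), Gm15270 (−1.07), Mxd1 (1.08) and Ctgf (−0.93), had differences with adjusted p of 0.197 to 0.2, and Gm15270 overlaps Ctgf on the opposite strand. The median width of the 95% interval of such a difference was 0.83. For Fn1 the difference of 1.57 had an adjusted p of 0.215.

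**Figure D5:**
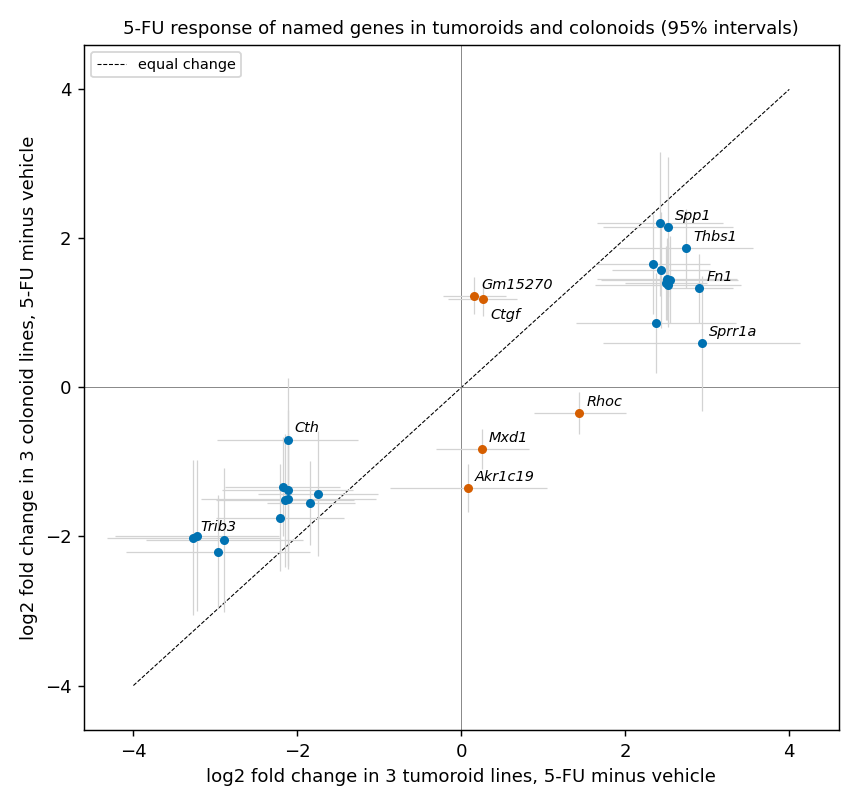
Log2 fold change with 5-FU in the 3 tumoroid lines (x axis) and the 3 colonoid lines (y axis) with 95% intervals as grey bars and equal change as a dashed line. Blue points are the 12 largest rises and 12 largest falls in tumoroids and orange points the 5 genes with the smallest p for the difference; Rhoc lies at 1.44 and −0.34.

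The same tumoroid lines were also treated with regorafenib, a multikinase inhibitor, at 4 and 8 µM. Both drugs are set against the same vehicle libraries, so their fold changes are given side by side only. Trib3 was at −3.27 with 5-FU, −2.20 with 4 µM and −2.42 with 8 µM regorafenib, and the integrated stress response list had medians of −1.22, −0.96 and −0.94. Fn1 was at 2.90, 5.44 and 5.18 and the matrix list had medians of 0.89, 1.70 and 1.69. The absorptive colonocyte list had medians of 0.01, −1.43 and −1.64.

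The direct contrast of 5-FU with 8 µM regorafenib was chosen after these values were seen. Its fold changes use no vehicle library. The vehicle libraries were part of the same fit and so enter the spread behind its adjusted p values. Genes were filtered on the vehicle and 5-FU libraries, so genes high only with regorafenib were not tested. The contrast called 350 genes higher (3.24%) and 302 lower (2.8%) with 5-FU. Of the 10 tested absorptive colonocyte genes 7 were higher with 5-FU, and without M14 1 was. The intestinal transcription factor Isx was at 3017, 1901 and 1574 CP20M with 5-FU and 138, 148 and 90 CP20M with regorafenib in F11, M3 and M14 (3.88, adjusted p = 1.47e-05). Carbonic anhydrase 1 (Car1) was at 2440, 2409 and 4165 CP20M against 122, 249 and 255 CP20M (3.74, adjusted p = 0.00117). The groups of both genes did not overlap, and both are named after their values were seen. Sprr1a, which passed the filter only through the libraries with 5-FU, was at 332, 702 and 1659 CP20M against 27, 22 and 28 CP20M (4.05, adjusted p = 0.00476). Fn1 was lower with 5-FU, at 5584, 11904 and 24198 CP20M against 22870, 66208 and 121856 CP20M (−2.28, adjusted p = 0.000977). The regorafenib library of F11 had an estimated 7500000 counted reads, against 19300000 in M3 and 16200000 in M14.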

How the data were processed

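RNA of colon organoids was sequenced as paired reads. Per the submitters' processing notes, Trimmomatic 0.36, STAR 2.5.3a, HTSeq 0.9.1 and the build GRCm38 were used. The deposited values are a signal, the authors' gene counts scaled to a total of 20000000 reads per library (CP20M) and apparently rounded up, with no division by length. The counting strand is not given in the sources used here, and the labels and the methods name different library kits. Read depth was estimated from the spacing of values, which resolves the deepest libraries only approximately.

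Here log2(CP20M + 20) of the 10802 tested genes was fitted with limma 3.58.1 in R 4.3.3 (eBayes with trend, two-sided), with treatment and line as terms over the 12 tumoroid libraries. Benjamini-Hochberg adjustment ran over all tested genes. Fold changes are on this scale and understate those of low genes. The difference between genotypes used the vehicle and 5-FU libraries of both genotypes, with no fold minimum. The scripts were tested on simulated data. Line pairs the libraries, since both treatments used the same line; deviations from the group means correlated at 0.72 to 0.87 within a line and −0.68 to 0.13 between lines. Replicates differed by a chi-square per gene of 52.1 to 126, so none was a duplicate.

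Named genes are the 12 largest rises and falls, up to 4 called members per list, preset genes, and the 5 smallest p for the genotype difference. Members and all 29 lists were chosen with earlier results of these data known, and 3 more lists after the values were seen. Coordinates are GENCODE M21 (GRCm38). Other pseudocounts, filters, scalings, sample sets and left-out lines were tried.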

Additional observations from a re-analysis of the deposited data

Results flagged for a closer look

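Rhoc was called for a difference between the genotypes. Its log2 fold change with 5-FU was 1.44 in tumoroids and −0.34 in colonoids, a difference of 1.78 (limma interaction, adjusted p = 0.0221). The call was lost without the line as a block, with all 24 libraries, with a pseudocount of 200 and on leaving out any line but M40. All 3 tumoroid lines were higher with 5-FU and all 3 colonoid lines lower. With vehicle, the tumoroids held 187 to 841 CP20M and the colonoids 2017 to 3768 CP20M.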

How the results depend on the processing

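The main comparison gave 582 calls (356 higher, 226 lower). Dropping the line as a block, which pairs the libraries, gave 85 (41 and 44), with 7 stress response, 1 matrix and 0 p53 calls. All 24 organoid libraries gave 255 (161 and 94), with 5 matrix and 4 p53 calls. This set, also tried for the genotype difference, holds the shallow colonoid M41 library with 4 µM regorafenib. That library had an estimated 500000 counted reads, and its part in the lower counts was not tested. A pseudocount of 200 gave 375 (129 lower), no filter 372 (131 lower, 4 p53 calls) and no fold minimum 979. Leaving out a line gave 0 to 1276 calls (0 to 658 higher, 0 to 618 lower), with 0 to 15 stress response, 0 to 9 matrix and 0 to 12 p53 calls. The lowest counts came without M3 or without M14 and the highest without F11, and the cause was not tested. The 6 libraries alone gave 868 calls, a pseudocount of 2 600, a lower filter 701, median-ratio scaling 619 and no trend 571.

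The genotype difference gave 1 call, 0 with no block, with all 24 libraries or with a pseudocount of 200, 3 with a filter of 20 CP20M (Rhoc, Agr2 and Calcb), and 0 to 3 on leaving out a line (Rhoc, Fn1 and Mcam without M40). The 7 absorptive genes higher than with 8 µM regorafenib became 2 with no block and 1 to 6 without a line, alternatives chosen after seeing the data.

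Of the 49 named genes called, 10 kept the call without the block, 36 with all 24 libraries and none without M3 or without M14. None of the 49 turned direction, which on leaving out a line was fixed in advance, since all called genes moved the same way in every line. Among genes not called, Trp53 turned to 0.02 with median-ratio scaling and ranged from −0.12 to 0.08 on leaving out a line (highest without M3), Mki67 from −0.20 (without M3) to 0.58 and Akr1c19 from −0.03 (without F11) to 0.20; the cause was not tested. The planned count tests in edgeR were not run, since whole reads could not be recovered from the tumoroid values.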

Other observations

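Lists of genes chosen after the values were seen show which other genes moved. Of the 20 cytosolic aminoacyl-tRNA synthetases, which charge tRNAs with amino acids, 11 were called lower and none higher. Of all genes tested 2.09% were called lower. The median log2 fold change of the list was −0.63, against −0.02 over all genes tested. Yars, which charges tyrosine, went from 3107, 4591 and 3909 CP20M to 1583, 1518 and 1566 CP20M in F11, M3 and M14 (−1.29, limma adjusted p = 0.00176), with no overlap between groups. The list of serine and one-carbon metabolism, which holds stress response genes named above, had 6 of 11 called lower. Its cytosolic member Aldh1l1 rose instead, from 674, 344 and 407 CP20M to 872, 1984 and 1442 CP20M (1.53, adjusted p = 0.0194).

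Of the 7 tested laminin chains, which form the basement membrane, 4 were called higher and none lower, with a median of 0.84. Of all genes tested 3.3% were called higher. Lama3 went from 595, 886 and 1552 CP20M to 2876, 4660 and 6445 CP20M (2.21, 95% interval 1.85 to 2.58, adjusted p = 0.000872), with no overlap between groups.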
